A study of Mus musculus with 5 samples.

Results

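The stretch described here covers positions 61480000 to 61704999 of chromosome 17 in the array's own coordinates and was taken as a candidate for introns of Fbxl17, the gene of an F-box protein with leucine-rich repeats. Its 5 kb windows were picked in earlier work on these arrays, which compared cDNA signal in total RNA with that in both polyA groups. The difference between total and polyA RNA is therefore given below as a description, and counts of calls on it only describe the choice. As deposited, total RNA stood above MEFF polyA RNA there but not above MEFB polyA RNA. The stretch spans 225 kb and 45 windows, of which 43 had the required 8 probes or more, out of 15383 such windows on the array. It holds 1228 of the 387986 chromosome 17 probes. RNA came from MEFF and MEFB, a pair of spontaneously immortalised fibroblast lines made from mouse embryos of 12.5 days after conception on the FVBN background. Both lines carry the Thp deletion of chromosome 17, MEFF as Thp/+ and MEFB as +/Thp, on opposite parental copies. The labels put this deletion between T and Sod2, which leaves Fbxl17 outside it. There were 2 arrays of MEFF total RNA, 1 array of MEFB polyA RNA and 2 arrays of MEFF polyA RNA, all from RNA treated with DNase 1. Double-stranded cDNA was hybridised in Cy3 against sonicated genomic DNA of Thp/+ or +/Thp fibroblasts (input) in Cy5, and such cDNA keeps no strand. The labels do not say whether the arrays of a group came from separate cultures, so the spread between them may be technical, and fibroblast markers were not checked on this array of 1 chromosome. In such bulk RNA, fewer cells with a transcript and less transcript per cell cannot be told apart.

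FBXL17 is a substrate receptor of SCF complexes, ubiquitin ligases in which a cullin scaffold joins an F-box protein to the enzymes that attach ubiquitin. It is known for quality control of BTB domain proteins, whose aberrant dimers it recognises. RNA polymerase copies the introns of a gene together with its exons, and splicing removes them. Selection for polyA tails enriches finished mRNA, whereas total RNA also holds transcripts that are still being made or spliced.

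No source used here names the genome build of the array positions, so the label was checked without using the cDNA channel. The input signal of a probe follows its base composition, and the input profile of the 1228 probes was slid along the NCBIM37 chromosome. The best match lay 2002224 bases further along, with a correlation of 0.229, against 0.146 at the next best place and 0.056 at the unshifted position. A finer match placed 1019 of the 1228 probes (83.0%), all of them inside Fbxl17. Of these, 1018 lay in introns and 1 touched an exon. The finer match searched only near the shifts of a coarser match of the same input signal, so it is no separate check of the gene. Over the whole array 255383 probes (65.8%) could be placed. As a check of the placing, probes at protein-coding exons exceeded intron probes of the same chromosome by 0.69 and 0.71 on the log2 scale in MEFF total RNA, by 1.61 in MEFB polyA RNA and by 1.24 and 1.87 in MEFF polyA RNA. These gaps shrank to between 0.22 and 0.76 in all 5 arrays when the probes were displaced by 2000 bases in either direction.

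In the gencode annotation of NCBIM37, Fbxl17 (ENSMUSG00000023965.7) occupies chr17:63406801-63849366 on the minus strand, a length of 442566 bases, and its transcript ENSMUST00000024761.6 has 9 exons. The 43 windows fall in its 2 longest introns. All 23 windows of intron 6 (chr17:63574451-63706096, 131646 bases) belong to the stretch, as do 18 of the 27 windows of intron 7 (chr17:63429913-63574373, 144461 bases), and the other 2 windows hold exons 6 and 7. The edge at position 61704999 thus lies just upstream of exon 6, while the edge at 61480000 lies within intron 7. The 3 exons that bound these introns are shown with 20 intron bases on each side, to mark the splice sites between which the signal lay. Exon bases are in capitals and intron bases in lower case, written 5′ to 3′ on the minus strand of NCBIM37.
Exon 6, chr17:63706077-63706247: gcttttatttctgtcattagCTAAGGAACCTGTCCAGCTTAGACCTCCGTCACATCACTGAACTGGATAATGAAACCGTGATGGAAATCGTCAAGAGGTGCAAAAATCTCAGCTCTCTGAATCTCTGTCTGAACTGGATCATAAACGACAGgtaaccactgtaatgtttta
Exon 7, chr17:63574354-63574470: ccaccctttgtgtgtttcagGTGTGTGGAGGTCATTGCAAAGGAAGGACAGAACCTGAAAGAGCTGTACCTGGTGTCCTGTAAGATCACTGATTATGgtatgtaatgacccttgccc
Exon 8, chr17:63429750-63429932: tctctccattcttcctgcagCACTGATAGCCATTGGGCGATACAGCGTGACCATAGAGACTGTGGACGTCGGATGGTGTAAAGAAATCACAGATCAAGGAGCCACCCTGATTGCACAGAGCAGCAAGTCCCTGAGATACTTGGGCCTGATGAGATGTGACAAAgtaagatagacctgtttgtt
All 3 intron starts begin with the usual GT and all 3 preceding introns end with the usual AG, and each exon matched the annotated transcript.

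Across the 43 windows the level, which is log2(cDNA/input) with the median of each array set to 0, averaged 0.411 and 0.370 in the 2 arrays of MEFF total RNA. It was 0.518 in the array of MEFB polyA RNA and 0.063 and 0.155 in the arrays of MEFF polyA RNA. The stretch was thus lowest in both MEFF polyA arrays, and the MEFB polyA array stood above both arrays of total RNA. The group mean was 0.391 ± 0.029 for MEFF total RNA, against 0.109 ± 0.065 for MEFF polyA RNA (SD, n = 2 each), a difference of 0.281, larger than either SD. The difference was positive in 43 of 43 windows, with a median of 0.28 over them against -0.01 over all 15383 windows. In 39 of the 43 windows both total RNA arrays lay above both MEFF polyA arrays, a pattern found in 14.2% of all windows. Because this contrast chose the windows, these counts describe the choice.

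The size of the difference depended on the background correction, and the calls in this paragraph are on the contrast that chose the windows, so nothing rests on them. None of the 43 windows passed an adjusted p of 0.05 in limma on the values as deposited, where 0% of all windows did, and the smallest adjusted p among the 43 was 0.573. At an unadjusted p under 0.05, 26 of the 43 were higher in total RNA, against 1.24% of all windows. After normexp background correction 18 of the 43 were called higher (0.689% of all windows), with a mean difference of 0.761, and after quantile normalization 30 were called higher (2.53% of all windows), with a mean difference of 0.414. Normexp moved the median of all windows to -0.10. The arrays differed in brightness. The median cDNA intensity was 2561 and 2542 in MEFF total RNA, 747 in MEFB polyA RNA and 1568 and 569 in MEFF polyA RNA, and the part of this in the difference was not tested beyond these settings. The image numbers in the file headers lie in separate ranges for the total RNA and the polyA arrays. The labels do not say whether these were separate series, and if they were, RNA type and series cannot be told apart.

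**Figure D1:**
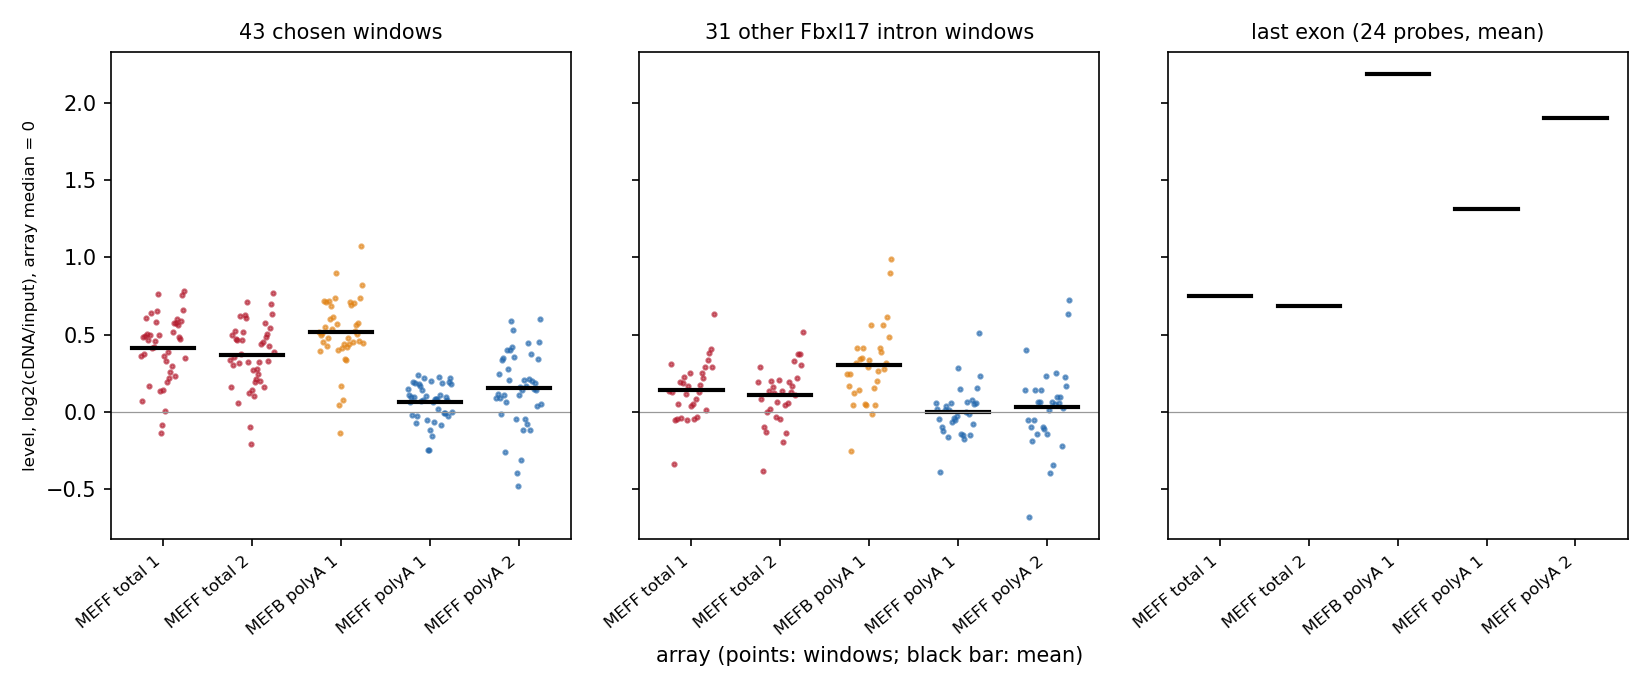
Level (log2 cDNA/input, array median at 0) in each of the 5 arrays for the 43 chosen windows (left), the 31 other Fbxl17 windows without an exon (middle) and the mean of the 24 probes at the last exon (right). Points are windows and black bars are means. The 43 windows average 0.411 and 0.370 in MEFF total RNA, 0.518 in MEFB polyA RNA and 0.063 and 0.155 in MEFF polyA RNA, while at the last exon the total RNA arrays are the lowest of the 5.

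The windows varied among themselves. The largest difference was in the window starting at 61680000 in intron 6, with levels of 0.587 and 0.544 in MEFF total RNA, 0.456 in MEFB polyA RNA and -0.030 and 0.038 in MEFF polyA RNA. Its 2 total RNA arrays lay above the other 3, and total minus MEFF polyA RNA was 0.56 ± 0.079 (standard error of the limma fit). It was the only one of the 43 windows with both total RNA arrays above all 3 polyA arrays, against 6.81% of all windows. Windows 61665000, 61685000 and 61660000, also in intron 6, and 61500000 in intron 7 came next, with differences of 0.46, 0.46, 0.45 and 0.44. The difference was smallest in window 61485000 of intron 7, where MEFF total RNA read 0.072 and 0.158, MEFB polyA RNA 0.395 and MEFF polyA RNA 0.109 and 0.114. There the MEFF groups overlapped and the difference was 0.003. Windows 61600000 and 61640000 of intron 6 followed with 0.13 and 0.14.

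The highest level in total RNA was in window 61695000, the first full window of intron 6. It read 0.780 and 0.771 in MEFF total RNA, 0.822 in MEFB polyA RNA and 0.177 and 0.598 in MEFF polyA RNA. Window 61560000, near the start of intron 7, followed with 0.764 and 0.714 in MEFF total RNA, 0.901 in MEFB polyA RNA and 0.219 and 0.531 in MEFF polyA RNA, and window 61685000 came after them. In windows 61695000 and 61560000 the MEFF polyA arrays differed from each other by more than 0.3, and both still lay below total RNA. The lowest levels were in windows 61580000 and 61575000 at the far end of intron 6, next to exon 7, and in 61605000. Window 61580000 read -0.083 and -0.207 in MEFF total RNA, -0.136 in MEFB polyA RNA and -0.250 and -0.480 in MEFF polyA RNA. All 5 arrays there lay below their median, and MEFF polyA RNA the lowest.

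At the edge in intron 7, the last window inside, 61480000, read 0.359 and 0.335 in MEFF total RNA, 0.515 in MEFB polyA RNA and 0.145 and 0.089 in MEFF polyA RNA. The nearest measured window outside, 61470000, read 0.114 and 0.121 in MEFF total RNA, 0.413 in MEFB polyA RNA and -0.063 and 0.141 in MEFF polyA RNA. At the other edge, window 61700000, which holds exon 6, read 0.349 and 0.386 in MEFF total RNA, 0.445 in MEFB polyA RNA and -0.002 and 0.051 in MEFF polyA RNA. The next window outside it, 61705000 in intron 5, read -0.053 and -0.036 in MEFF total RNA, 0.048 in MEFB polyA RNA and -0.043 and -0.101 in MEFF polyA RNA. The step at exon 6 was steep in total RNA and in MEFB polyA RNA, and the step within intron 7 was smaller in both.

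MEFB polyA RNA stood above MEFF polyA RNA over these introns, with a similar profile along the windows. Over the 43 windows its correlation with the MEFF polyA arrays was 0.844 and 0.826, against 0.832 between those 2 arrays. MEFB polyA minus MEFF polyA RNA averaged 0.408 and was positive in 43 of 43 windows, and the MEFB array lay above both MEFF polyA arrays in all 43, against 34.7% of all windows. No window of the 43 was called in limma on the values as deposited (0.0065% of all windows), 34 of 43 were higher at an unadjusted p under 0.05 (9.41% of all windows), and 6 were called after quantile normalization (3.69% of all windows) and 0 after normexp (1.96%). The windows had been chosen with the MEFF polyA arrays low, so these counts are no independent evidence either, and the spread of the single MEFB array was taken from the other groups. MEFF total minus MEFB polyA RNA averaged -0.127 as deposited, with 2 of 43 windows positive and 0 called (0% of all windows higher, 0.377% lower). At an unadjusted p under 0.05, 0 windows were higher and 4 lower in total RNA (5.54% and 12.2% of all windows), and the MEFB array lay above both total RNA arrays in 32 of 43 windows, against 49.8% of all windows. MEFF total minus MEFB polyA RNA averaged 0.197 after normexp and 0.144 after quantile normalization, each with 36 of 43 windows positive. After quantile normalization 3 windows were called higher (3.63% of all windows). The order of total RNA and MEFB polyA RNA thus differed between settings. The choice of windows read total RNA against both polyA groups, so these counts, and the ranks that follow, describe the choice too. Ranked within each array, the median window of the stretch stood at percentile 91.8 and 89.8 in MEFF total RNA, 85.7 in MEFB polyA RNA and 74.6 and 74.9 in MEFF polyA RNA. On that rank scale total RNA came above MEFB polyA RNA, whose windows spread more widely (SD over all windows 0.575, against 0.357 and 0.354 in total RNA). The 8 windows next to the 5′ end of the gene, outside it, also stood higher in MEFB polyA RNA, at a mean of 0.404, against -0.125 and -0.114 in MEFF total RNA and -0.040 and -0.158 in MEFF polyA RNA. These windows lie beyond the last placed probe, so their place outside the gene is extrapolated.

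Within each long intron the level declined in the direction of transcription. Over the first 5 windows of intron 6 it averaged 0.651 and 0.613 in MEFF total RNA, 0.732 in MEFB polyA RNA and 0.127 and 0.315 in MEFF polyA RNA. Over the last 5 windows it averaged 0.057 and 0.041 in MEFF total RNA, 0.112 in MEFB polyA RNA and -0.114 and -0.184 in MEFF polyA RNA. The difference between ends was thus present in all 5 arrays and was smaller in MEFF polyA RNA. Intron 7 started again high, at 0.591 and 0.558 in MEFF total RNA, 0.671 in MEFB polyA RNA and 0.122 and 0.459 in MEFF polyA RNA over its first 5 windows. Its last 5 windows, which lie outside the chosen stretch, averaged -0.039 and -0.095 in MEFF total RNA, 0.128 in MEFB polyA RNA and -0.114 and -0.176 in MEFF polyA RNA. The profile over the 2 introns therefore had the form of a saw, with a fall along each intron and a step up after the exon.

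Pearson's correlation of window level with distance from the 5′ splice site was -0.89 and -0.89 in the 2 arrays of MEFF total RNA, -0.84 in MEFB polyA RNA and -0.61 and -0.69 in MEFF polyA RNA over the 23 windows of intron 6. Over the 27 windows of intron 7 it was -0.85 and -0.83 in MEFF total RNA, -0.83 in MEFB polyA RNA and -0.66 and -0.74 in MEFF polyA RNA. These describe neighbouring windows of the same arrays, which share probes' base composition between arrays and are not independent. Input signal was nearly flat along intron 6 (r = -0.039) and rose with distance along intron 7 (r = 0.246). Input is the denominator of the level, so a rise in it lowers the level, and its part in the decline was not tested. The share of G and C in the probes had correlations of -0.082 and 0.060 with distance. Total minus MEFF polyA RNA declined with distance as well, with r = -0.71 in intron 6 and r = -0.64 in intron 7. After normexp the correlations in total RNA were -0.87 and -0.86, and after quantile normalization -0.90 and -0.85.

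Intron 4 (chr17:63734402-63820756, 86355 bases), of which no window was chosen, had the same form at a lower level. Over its 12 windows the correlation with distance was -0.80 and -0.86 in MEFF total RNA, -0.83 in MEFB polyA RNA and -0.70 and -0.48 in MEFF polyA RNA. Its first 5 windows averaged 0.287 and 0.280 in MEFF total RNA, 0.450 in MEFB polyA RNA and 0.053 and 0.057 in MEFF polyA RNA. Its last 5 averaged 0.061 and -0.008 in MEFF total RNA, 0.130 in MEFB polyA RNA and -0.082 and -0.073 in MEFF polyA RNA. The share of G and C rose with distance here (r = 0.419).

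**Figure D2:**
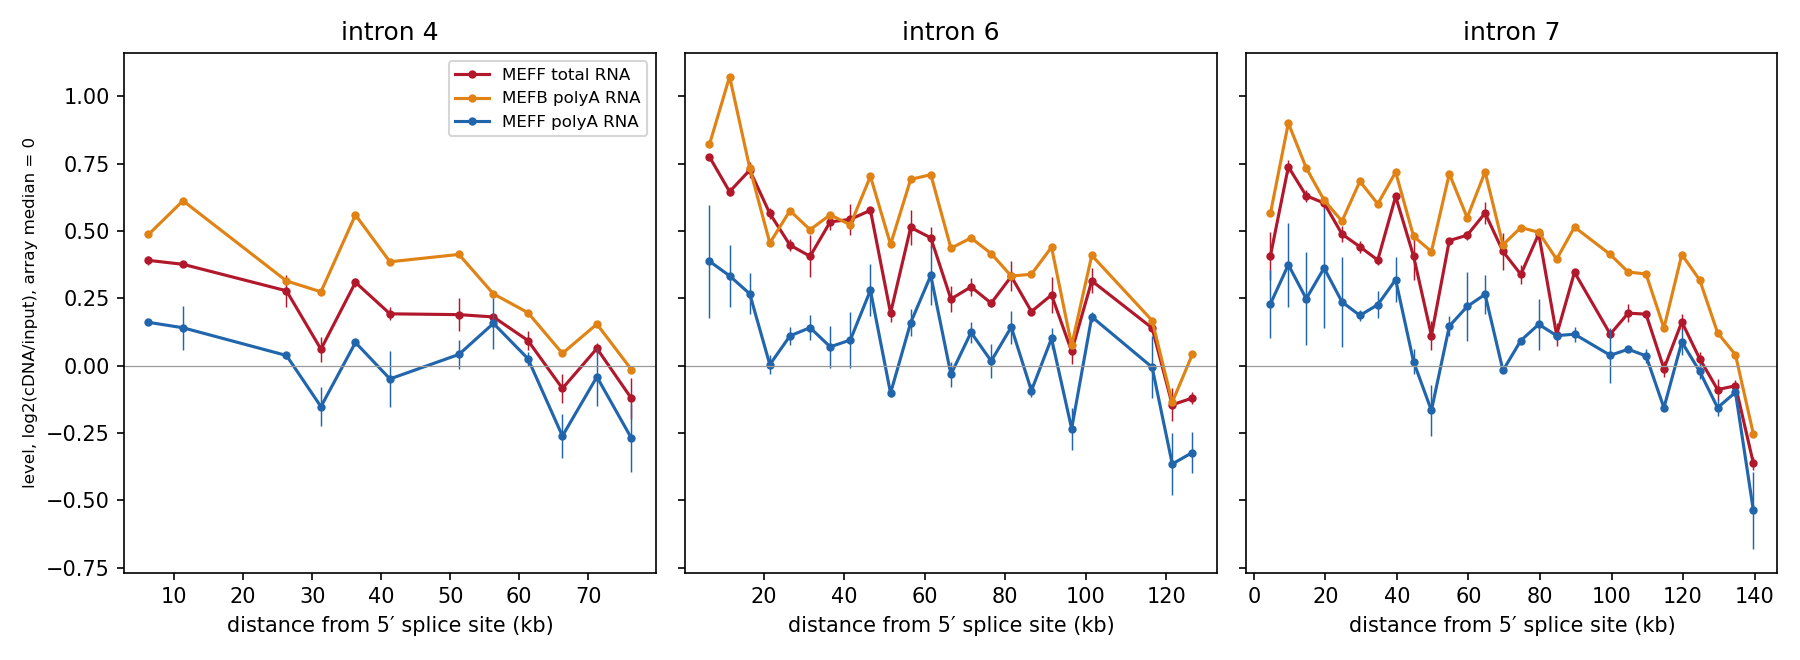
Level of 5 kb windows (log2 cDNA/input, array median at 0) against distance from the 5′ splice site in kb for introns 4, 6 and 7 of Fbxl17. Points are group means, vertical lines join the 2 arrays of a group, and MEFB polyA RNA is 1 array. In introns 6 and 7 total RNA averages near 0.6 over the first 5 windows and near 0 over the last 5. MEFF polyA RNA lies lower throughout.

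The decline was compared with that of other long introns on the chromosome, using the placed windows alone. There were 56 introns of at least 50 kb with at least 10 placed windows in 32 other protein-coding genes. Their correlation with distance in MEFF total RNA ranged from -0.88 to 0.71 with a median of -0.14, and 16 of the 56 lay below -0.5. Measured in the same way, introns 6, 4 and 7 of Fbxl17 gave -0.93, -0.85 and -0.83 over 14, 12 and 24 windows. They ranked 1, 3 and 4 among all 59, counted from the most negative correlation. The correlation measures how closely level followed distance, and the steepness of the fall was not ranked. Rank 2 was taken by a 230 kb intron of Efna5, a ligand of Eph receptors and the neighbour of Fbxl17, with -0.88 over 41 windows. Of the 12 other introns whose mean level in total RNA exceeded 0.1, 8 had a correlation below -0.5, against 8 of the 44 at lower levels. A higher level and a more negative correlation went together across introns. These correlations are descriptions whose limits were set after the profile had been seen.

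**Figure D3:**
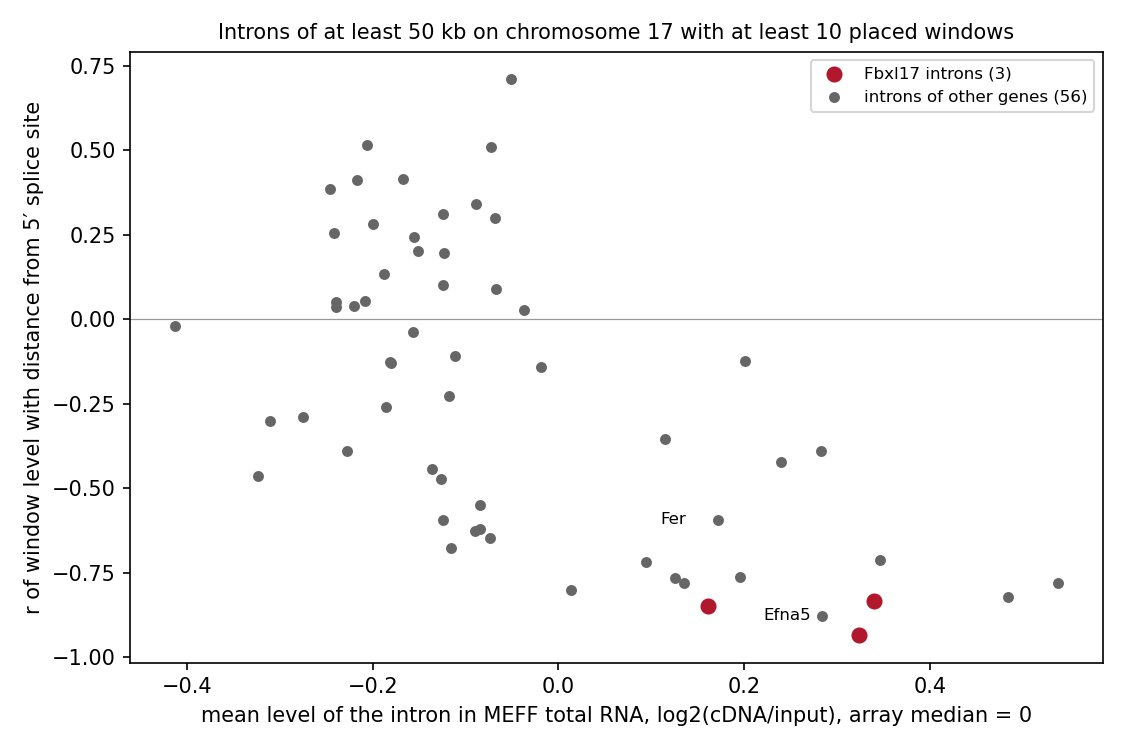
Correlation of window level with distance from the 5′ splice site, plotted against the mean level of the intron in MEFF total RNA (log2 cDNA/input, array median at 0), for 59 introns of at least 50 kb. The 3 introns of Fbxl17 (red) lie at -0.93, -0.85 and -0.83, near the low end of the 56 introns of other genes (grey), and introns with a level above 0.1 lie mostly at negative correlations.

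Between MEFF total and MEFF polyA RNA the last exon of Fbxl17 differed in the other direction from its introns. This exon, 2960 bases at chr17:63406801-63409760 with 24 placed probes, read 0.751 and 0.685 in MEFF total RNA, 2.19 in MEFB polyA RNA and 1.31 and 1.90 in MEFF polyA RNA. All 3 polyA arrays were above both arrays of total RNA. Against MEFB polyA RNA total RNA was lower in exon and introns alike as deposited, with differences of -1.47 at the last exon, -0.127 in the chosen windows and -0.177 in the 31 exon-free windows outside them. The group mean was 0.718 ± 0.046 for MEFF total RNA, against 1.61 ± 0.42 for MEFF polyA RNA (SD, n = 2 each), a difference of -0.890, larger than either SD. An exact permutation test of total RNA against all 3 polyA arrays gave a two-sided p of 0.2, the smallest that 2 against 3 arrays allow. The last exon stood above the mean of the 31 exon-free windows outside the chosen stretch by 0.607 and 0.576 in MEFF total RNA, by 1.89 in MEFB polyA RNA and by 1.31 and 1.87 in MEFF polyA RNA. That contrast between exon and introns of the same gene uses none of the chosen windows, and it too had an exact two-sided p of 0.2. The last exon comparison was added after the data had been seen. Over the whole chromosome, placed exon probes exceeded intron probes by 0.69 and 0.71 in MEFF total RNA. In polyA RNA that gap was 1.61 in MEFB and 1.24 and 1.87 in MEFF. The gap at the last exon was close to these values, so it shows nothing particular to Fbxl17.

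Of the 2 windows that the last exon touches, 61405000 read 0.358 and 0.420 in MEFF total RNA, 1.46 in MEFB polyA RNA and 0.807 and 1.20 in MEFF polyA RNA. Its limma call was missed as deposited (adjusted p = 0.573) and after normexp (adjusted p = 0.179). It was reached after quantile normalization (adjusted p = 0.032, where 3.51% of all windows were called lower in total RNA). Window 61400000 read 0.654 and 0.503 in MEFF total RNA, 1.51 in MEFB polyA RNA and 0.831 and 1.39 in MEFF polyA RNA. It was called by limma in none of these settings (adjusted p = 0.644, 0.236 and 0.137). Other exons had 0 to 2 placed probes, and exons 1, 2, 3, 4, 6 and 8 of ENSMUST00000024761.6 had none. Exon 5 read 1.33 and 1.13 in MEFF total RNA, 2.87 in MEFB polyA RNA and 1.49 and 2.19 in MEFF polyA RNA. An exon of another transcript, ENSMUST00000090318.2, at chr17:63830469-63830639, read 1.29 and 0.985 in MEFF total RNA, 2.25 in MEFB polyA RNA and 1.65 and 2.03 in MEFF polyA RNA. Exon 7, within the chosen stretch, had 1 probe, which read -0.594 and -0.690 in MEFF total RNA, 1.10 in MEFB polyA RNA and -0.322 and -0.589 in MEFF polyA RNA. Exon 6 had no placed probe, and its window therefore reads intron alone. The window at the expected place of exon 1, 61845000, read 0.626 and 0.601 in MEFF total RNA, 1.25 in MEFB polyA RNA and 0.847 and 1.35 in MEFF polyA RNA, but it lies beyond the last placed probe and its position is extrapolated.

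**Figure D4:**
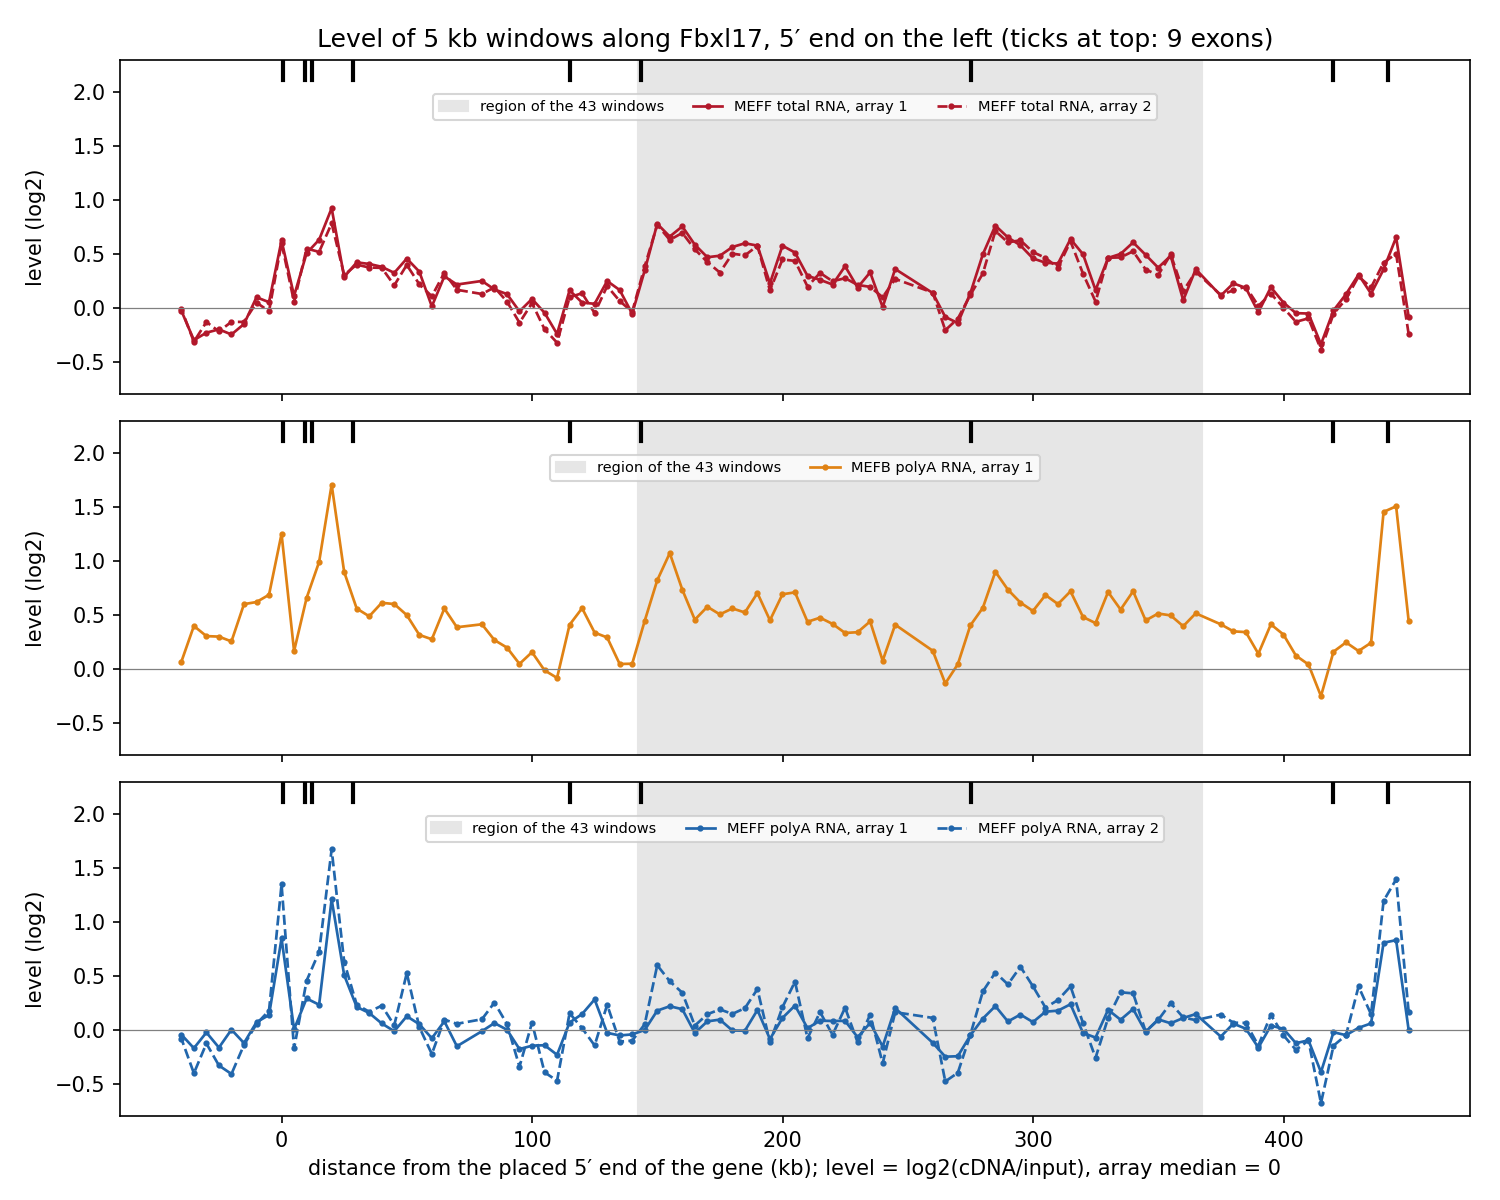
Level of 5 kb windows (log2 cDNA/input, array median at 0) against distance in kb from the placed 5′ end of Fbxl17, for MEFF total RNA (top), MEFB polyA RNA (middle) and MEFF polyA RNA (bottom), 1 line per array. Ticks mark the 9 exons and grey the chosen stretch. Total RNA stays between -0.4 and 1 along the gene with 2 falling slopes in the grey area. The polyA arrays peak at both ends, and the 2 windows that the last exon touches read 0.807 to 1.51 in them.

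Outside the stretch the gene has 43 more windows. The 31 without an exon averaged 0.143 and 0.109 in MEFF total RNA, 0.304 in MEFB polyA RNA and 0.001 and 0.034 in MEFF polyA RNA. Total minus MEFF polyA RNA was 0.109 there, positive in 29 of 31 windows. An exact permutation test between the 2 MEFF groups gave a two-sided p of 0.333, the smallest that 2 against 2 arrays allow. Against all 3 polyA arrays the difference was 0.013, and that exact test did not reach its smallest possible p of 0.2. The 12 windows with an exon averaged 0.357 and 0.304 in MEFF total RNA, 0.741 in MEFB polyA RNA and 0.344 and 0.519 in MEFF polyA RNA, with a difference of -0.101 between total and MEFF polyA RNA. Of the 43 windows limma called 0 as deposited, where 4 were higher and 5 lower in total RNA at an unadjusted p under 0.05 (1.24% and 6.49% of all windows), and 0 after normexp, and after quantile normalization 6 higher and 1 lower in total RNA (2.53% and 3.51% of all windows). By intron, the mean difference was 0.17 in intron 4, 0.06 in intron 5, 0.29 in intron 6, 0.22 in intron 7 and 0.10 in intron 8. In intron 3, with 2 windows next to the exon of ENSMUST00000090318.2, it was -0.09.

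The annotation puts 4 other genes inside the stretch. 4930405O22Rik, a processed transcript on the same strand at chr17:63654795-63662322 in intron 6, had 34 probes at 0.491 and 0.504 in MEFF total RNA, 0.673 in MEFB polyA RNA and 0.138 and 0.321 in MEFF polyA RNA. It lay within the range of the intron around it, and with unstranded cDNA the 2 cannot be separated. The pseudogene Gm17228, at chr17:63696269-63696759, had 2 probes, at 0.512 and 0.887 in MEFF total RNA, 4.19 in MEFB polyA RNA and 0.700 and 1.80 in MEFF polyA RNA. Those 2 probes were far above the intron in MEFB polyA RNA, and whether they read transcripts of a related gene elsewhere was not tested. The small nucleolar RNA gene SNORA17, with 2 probes, read -0.212 and -0.118 in MEFF total RNA, -0.442 in MEFB polyA RNA and -0.237 and -0.045 in MEFF polyA RNA. A miRNA gene, CT030727.1, had no placed probe.

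Among the 113 protein-coding genes with at least 10 placed windows, the gene as a whole, over 68 placed windows, averaged 0.287 and 0.249 in MEFF total RNA, 0.449 in MEFB polyA RNA and 0.064 and 0.132 in MEFF polyA RNA. Its difference of 0.170 between total and MEFF polyA RNA ranked 5 among the 113, which ranged from -0.568 to 0.203 with a median of -0.01. The chosen windows raise that mean, and without them the other 35 placed windows of the gene gave 0.069, at rank 10. The difference was positive in 41 of the 113 genes. By the root mean square difference from the 43 windows over the 5 arrays, the genes most like them were Efna5 (0.111), Fer (0.124), Runx2 (0.146), Strn (0.153) and Map4k3 (0.154). Efna5 and Fer, a cytoplasmic tyrosine kinase gene, are the listed neighbours on either side of Fbxl17. Runx2 encodes a transcription factor of bone formation, Strn a scaffold of the striatin family and Map4k3 a protein kinase. Total minus MEFF polyA RNA was small in Runx2 (0.059), Strn (0.011) and Map4k3 (0.015), and in each of them the MEFF groups overlapped. Efna5 averaged 0.271 and 0.234 in MEFF total RNA, 0.643 in MEFB polyA RNA and 0.022 and 0.078 in MEFF polyA RNA over 51 windows, and its difference of 0.20 was above that of Fbxl17. After normexp 17 of its 51 windows were called higher in total RNA, against 0.689% of all windows. Fer averaged 0.240 and 0.210 in MEFF total RNA, 0.651 in MEFB polyA RNA and 0.130 and 0.140 in MEFF polyA RNA over 34 windows, of which 3 were called higher after normexp, against the same 0.689%. The farther neighbours Man2a1, an enzyme gene of N-glycan processing, and Pja2, a RING ubiquitin ligase gene, had lower means in total RNA, with differences of -0.10 over 20 windows and -0.22 over 8 windows.

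**Figure D5:**
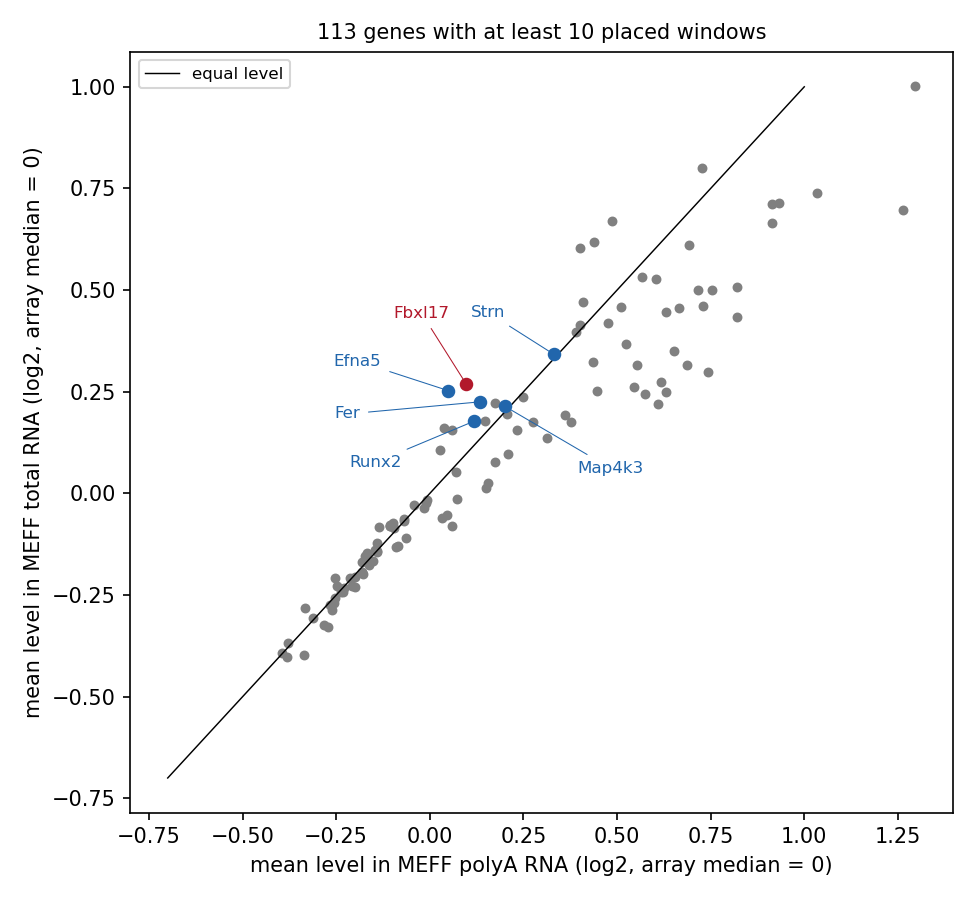
Mean level over placed windows in MEFF total RNA (vertical) against MEFF polyA RNA (horizontal) for 113 genes, on the log2 scale with the array median at 0. The line marks equal levels. Fbxl17 (red) and the 5 genes most like its chosen windows (blue) lie on or above the line, and most genes with a level over 0.3 in MEFF polyA RNA lie below it.

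Other chromosome 17 genes of the ubiquitin and BTB pathways mostly had lower means in total RNA, as did most of the 113 genes above. Of 19 genes listed beside Fbxl17, 15 had placed windows, 370 in all. Total minus MEFF polyA RNA was positive in 4 and negative in 11 of these genes, with a median of -0.29. Of the 113 genes 41 were positive, with a median of -0.01, but those all had at least 10 placed windows. Many listed genes had fewer, down to 1 in Trim26 and Zbtb9, so the 2 sets are unlike. Among listed genes that reached 10, Fbxo11 (0.08), Btbd9 (0.05) and Park2 (0.0002) were positive, and Birc6 (-0.29) and Rnf8 (-0.39) negative. As deposited limma called 0 of the 370 windows, with 3 higher and 27 lower in total RNA at an unadjusted p under 0.05 (1.24% and 6.49% of all windows). After normexp 2 were called higher and 14 lower in total RNA (0.689% and 2.68% of all windows), and after quantile normalization 11 higher and 14 lower (2.53% and 3.51%). Most of these shares were near those of all windows, so the counts show nothing particular to the list. Fbxo11, the other F-box gene of the list, averaged 0.815 and 0.788 in MEFF total RNA, 0.985 in MEFB polyA RNA and 0.518 and 0.934 in MEFF polyA RNA over 15 windows, and its groups overlapped. The cullin gene Cul7, a short gene with 2 windows, read 1.54 and 1.62 in MEFF total RNA, 2.74 in MEFB polyA RNA and 2.38 and 3.49 in MEFF polyA RNA, all 3 polyA arrays above total RNA. Park2, which encodes the ligase parkin and is mostly intron, averaged below the array median over its 205 windows, at -0.145 and -0.138 in MEFF total RNA, -0.140 in MEFB polyA RNA and -0.080 and -0.204 in MEFF polyA RNA. Its parts varied, and a 99.6 kb intron of 16 windows averaged 0.115 in MEFF total RNA. Btbd9, a BTB domain gene of 71 windows, read -0.060 and -0.104 in MEFF total RNA, 0.084 in MEFB polyA RNA and -0.116 and -0.155 in MEFF polyA RNA. Total RNA lay above MEFF polyA RNA there, by 0.05.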

How the data were processed

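The authors deposited the raw intensity of every probe by channel. Per the file headers NimbleScan 2.2.34 read the images, and the values show no normalization. The array maker labelled and hybridised the samples, per the labels. No dye swaps were made. Values were turned into log2(cDNA/input), centred on each array's median and averaged over 5 kb windows. The limma package (3.58.1, R 4.3.3) fitted group means to all 5 arrays (2 residual degrees of freedom), with Benjamini-Hochberg adjustment over 15383 windows and a threshold of 0.05. The number of arrays limits the precision, and 1 probe of the stretch was saturated on 1 array. Probes were placed on NCBIM37 in blocks of 8 from the input channel, at a posterior of at least 0.99. Windows named were the 5 largest and 3 smallest differences, the 3 highest and 3 lowest levels in total RNA, the edges and the exon windows, and like genes were the 5 nearest. The stretch, the gene lists and the tests were chosen with earlier results of these data known. Scripts were tested on simulated data.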

Additional observations from a re-analysis of the deposited data

How the results depend on the processing

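The mean difference between MEFF total and MEFF polyA RNA over the 43 windows stayed positive in every setting tried. It was 0.346 with loess, 0.414 with quantile normalization, 0.761 with normexp and 0.213 with the cDNA channel alone, and 0.235 to 0.327 with 1 array left out. The windows called numbered 0 as deposited, 30 with quantile normalization (2.53% of all windows were then called higher), 18 with normexp (0.689%) and 0 to 35 with 1 array left out. They were 29 without the first MEFF polyA array (11.9% of all windows higher) and 35 without the second (4.54%), where that group rests on 1 array. These windows were chosen on this contrast, and the choice also read total RNA against MEFB polyA RNA. MEFF total minus MEFB polyA RNA, -0.127 as deposited, turned to 0.144 with quantile normalization and 0.197 with normexp, and was -0.063 without dim probes and -0.148 to -0.106 with 1 array left out. Its calls were 3 with quantile normalization (3.63% of all windows higher), 14 when only the arrays of these groups were fitted, and 0 to 14 with 1 array left out. The 14 calls, all lower in total RNA, were seen without either MEFF polyA array, and in each of these fits 27.9% of all windows were called lower. MEFB polyA minus MEFF polyA RNA was 0.270 with quantile normalization, 0.564 with normexp, 0.332 with the cDNA channel alone and 0.363 to 0.454 with 1 array left out. Its calls were 5 with loess, 6 with quantile normalization and 2 with a trended prior (2.51%, 3.69% and 2.07% of all windows higher), and 0 to 42 with 1 array left out. They were 38 without the first and 42 without the second MEFF polyA array, where 26.2% and 22.5% of all windows were called higher. The last exon difference, examined after seeing the data, was -0.586 with loess, -0.444 with quantile normalization and -1.19 to -0.594 with 1 array left out. The causes of these shifts were not tested.

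Of 192 values for the 16 named windows under 12 settings, 148 kept their direction and side of the threshold, 41 passed it newly and 3 changed sign. These were window 61485000 without the second total RNA array (-0.040, against 0.046 without the first), and windows 61575000 and 61580000 with the cDNA channel alone (-0.013 each). No paired analysis was possible because the arrays are numbered by accession order alone. Probes between 61830648 and the 5′ end of the gene could not be placed, and 17.0% of the probes of the stretch were not placed.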
